A study of Homo sapiens with 96 samples.

Results

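The comparison was between OCIAML3 cells given all-trans retinoic acid (ATRA) together with an LSD1 inhibitor and OCIAML3 cells given the LSD1 inhibitor alone. OCIAML3 is an established human acute myeloid leukaemia (AML) line that carries an NPM1 mutation. The tested libraries, labelled Combo, came from cells treated with 1 µM GSK2879552 and 100 nM ATRA, and the libraries they were set against, labelled 552A, from cells treated with 1 µM GSK2879552, each for 2 or 4 days. No label spells out 552A, which is taken here for GSK2879552, the remaining arm in the protocol and a compound whose name ends in the same digits. Libraries were selected by cell line and treatment label, which gave 4 Combo libraries against 4 552A libraries, 8 of the 96 in the series, with 2 replicates per treatment and day. Both groups therefore carried the inhibitor, and ATRA was the difference between them. The 4 OCIAML3 libraries given 100 nM ATRA alone and the 4 given 0.1% DMSO as vehicle were used to ask whether ATRA acted differently without the inhibitor, and 40 Combo and 552A libraries of HL60, Kasumi1, MOLM13, MV411 and THP1 to ask whether OCIAML3 differed from other AML lines. Whether replicates are separate cultures is not stated in the labels, so p-values reflect the spread among these libraries alone, and that spread may be technical. All results are from 1 line, and RNA sequencing was the only readout.

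ATRA binds the retinoic acid receptors, which sit on DNA as heterodimers with retinoid X receptors and exchange corepressors for coactivators when the ligand is present. Their best known direct targets include the CYP26 enzymes that break retinoic acid down and RARB, itself a receptor. In acute promyelocytic leukaemia ATRA drives granulocytic differentiation, and LSD1, the histone demethylase encoded by KDM1A, works with GFI1 and GFI1B in complexes that hold myeloid genes silent.

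The 8 libraries held 14.36 to 33.23 M counts (median 21.08 M). Of 60552 gene rows, 18977 passed the expression filter. Values below are CPM, counts relative to library sizes adjusted by TMM, and are given as day 2 replicates 1 and 2, then day 4 replicates 1 and 2. A gene was called where the Benjamini-Hochberg adjusted p of edgeR's quasi-likelihood test was under 0.05, and every adjusted p comes from that test. A log2 fold change is Combo over 552A averaged over the days, with its standard error (SE). The progenitor and myeloid genes that mark this line were expressed. HOXA9 had 53.9, 71.6, 68.4 and 87.1 CPM in Combo libraries, against 48.8, 99.6, 58.3 and 73.0 CPM in 552A libraries, and the surface marker CD33 had 86.4 to 95.4 CPM in Combo libraries, against 84.3 to 96.5 CPM in 552A libraries. HBB was at 0 in all 8 libraries, and CD3E and MS4A1 did not exceed 0.111 CPM in any. KDM1A, the inhibitor's target, had 138, 140, 162 and 183 CPM in Combo libraries, against 156, 165, 163 and 172 CPM in 552A libraries, and was not called (log2 fold change -0.08, adjusted p = 0.776).

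One library stood apart. In 552A day 2 replicate 2 the log2 ratio to the mean of the 16 OCIAML3 libraries changed by -0.99 per 10% of gene GC content over 12772 genes, against -0.54 to 0.33 in the other 7. It also lay at the far end of the first principal component, which held 59.6% of the variance of the 8 libraries. The count over all genes is therefore given also without it, as are the counts of those gene lists described below that it moves by over 1.5 times, and a count of list members with no such statement is from all 8 libraries.

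Adding ATRA to the inhibitor changed 1315 of the 18977 genes tested (6.93%). Of these, 934 were higher in Combo (4.92% of genes tested) and 381 were lower (2.01%), and the median log2 fold change over all genes tested was -0.02. Without 552A day 2 replicate 2 the call covered 6117 genes, 3170 higher and 2947 lower, among them all 1315. With a correction for gene GC content and length it covered 5463, 2705 higher and 2758 lower, of which 1300 were shared. So the excess of higher genes, 71.0% of the calls with all 8 libraries, was 51.8% without that library and 49.5% with the correction. List counts given below without that library or with the correction belong beside these larger totals, not beside 4.92% and 2.01%. A larger list count there can reflect the larger total alone. Leaving out each of the other 7 libraries gave 516 to 903 calls. The groups did not overlap within either day for 2234 genes with higher values in Combo (11.8%) and 1554 with lower ones (8.19%). A core of 400 genes, 299 higher and 101 lower, kept its call and direction in all 16 alternatives run.

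**Figure D1:**
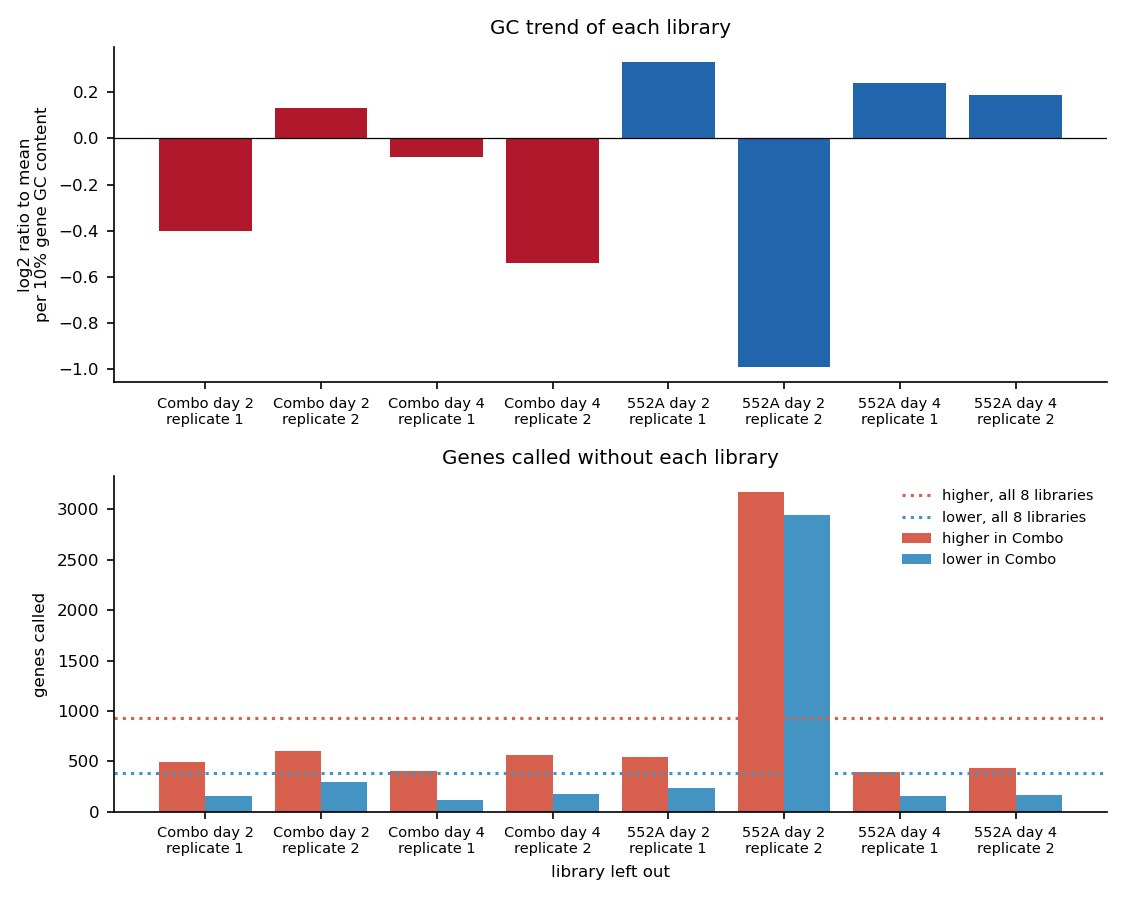
Upper panel: slope of each library's log2 ratio to the mean of the 16 OCIAML3 libraries against gene GC content, per 10% GC, for the 4 Combo and 4 552A libraries. Lower panel: genes called higher or lower in Combo when the library below the bars is left out, with dotted lines at the 934 and 381 called with all 8. 552A day 2 replicate 2 has the steepest slope, -0.99, and the count without it is 3170 higher and 2947 lower.

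Genes that handle retinoic acid were among the largest rises. CYP26A1, which hydroxylates retinoic acid and so ends its signal (chr10:93073475-93077890, plus strand, GRCh38), had 46.3, 85.1, 115 and 115 CPM in Combo libraries and 0 in every 552A library. This was at least 2860-fold higher in Combo, with the 552A group bounded at 3 counts over its 4 libraries, a bound that covers counting error only (adjusted p = 0.000387). CYP26B1, a second enzyme of that family, had 9.33, 18.4, 5.02 and 2.18 CPM in Combo libraries, against 0, 0.0553, 0 and 0 CPM in 552A libraries (log2 fold change 8.99 ± 0.69 SE, adjusted p = 0.000378). DHRS3, which reduces retinaldehyde back to retinol, had 252, 331, 408 and 291 CPM in Combo libraries, against 11.0, 7.19, 17.4 and 35.4 CPM in 552A libraries (4.36 ± 0.39, adjusted p = 0.000694). In all of these the lowest Combo library was above the highest 552A library. For CYP26A1 and CYP26B1, the rule that named the largest rises required such separation within each day. STRA6, a membrane receptor for the retinol carrier in plasma, and DHRS9, a retinol dehydrogenase, were also higher, by 2.82 and 0.91 on the log2 scale, and ALDH1A2, which makes retinoic acid, by 2.49 from low counts. ALDH1A3, another enzyme that makes retinoic acid, went the other way. It had 0.519, 1.14, 0.536 and 0.499 CPM in Combo libraries, against 12.8, 13.7, 12.9 and 16.6 CPM in 552A libraries (-4.36 ± 0.33, adjusted p = 0.000364). Of 17 retinoid metabolism and transport genes, 14 were tested, and 6 rose and 1 fell, with a median log2 fold change of 0.57.

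Among the receptors, RARB had 45.7, 32.1, 40.6 and 40.8 CPM in Combo libraries, against 4.86, 7.19, 4.25 and 5.11 CPM in 552A libraries (2.91 ± 0.24, adjusted p = 0.000436), with no overlap. RARA had 22.8, 58.2, 31.4 and 17.4 CPM in Combo libraries, against 66.3, 10.0, 54.1 and 81.8 CPM in 552A libraries. These overlapped, with the lowest value of all in 552A day 2 replicate 2, and RARA was not called (-0.69 ± 0.63, adjusted p = 0.574). The coactivators NCOA3 and NCOA2 and the corepressor NRIP1 were higher by 1.11, 0.75 and 0.86 on the log2 scale, and the other 7 of the 11 receptors and cofactors tested, among them RXRA and NCOR1, were not called. Without 552A day 2 replicate 2 5 of the 11 were higher and 3 lower.

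The promoters of the called genes were read for the element to which these receptors bind, which is built from repeated hexamers. The search took 250 bases before the start of each transcript in RefSeq (GRCh38.p14), on both strands, for a pair of hexamers in the same orientation, each of them the consensus AGGTCA, its variant AGTTCA, the related hexamer GGGTCA or the last form searched, GGTTCA, with 5 bases between them. It occurred in 26 of 35116 windows (0.074%). Among tested genes with a window, 8 of 10882 held it (0.0735%), and among genes called higher 3 of 586 (0.512%), which were CYP26A1, RARB and BATF2, a transcription factor of the AP-1 family. It was in none of the 259 genes called lower. With 2 bases between the hexamers the pair was in 11 windows and with 1 base in 34. The 2-base pair was in 5 tested genes (0.0459%), in 0 of the 586 called higher and in 1 of the 259 called lower, SEMA4A. The 1-base pair was in 14 tested genes (0.129%), in 1 of the 586 called higher (0.171%) and in 0 called lower. The windows of the 3 higher genes are shown because they hold a match, with the matched bases in capitals and each sequence written 5′ to 3′ in the direction of its gene. In CYP26A1 (chr10:93073643-93073892, plus strand) the match lies on the opposite strand, 90 to 74 bases before the start. In RARB (chr3:25428013-25428262, plus strand) it lies on the gene's strand, 53 to 37 bases before the start, and in BATF2 (chr11:64990278-64990527, minus strand) on the gene's strand, 29 to 13 bases before the start. Each of these windows lies inside the annotated span of its gene, before a transcript start that is not the outermost. The spans are chr10:93073475-93077890 for CYP26A1, chr3:25174332-25597932 for RARB and chr11:64987943-64997045 for BATF2. A match describes the letters and is not evidence of binding.
CYP26A1: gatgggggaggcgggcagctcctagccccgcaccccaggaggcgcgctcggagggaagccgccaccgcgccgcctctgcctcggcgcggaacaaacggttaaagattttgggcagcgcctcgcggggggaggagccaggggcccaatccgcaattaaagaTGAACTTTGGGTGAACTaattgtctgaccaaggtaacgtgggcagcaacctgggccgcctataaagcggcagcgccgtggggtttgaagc
RARB: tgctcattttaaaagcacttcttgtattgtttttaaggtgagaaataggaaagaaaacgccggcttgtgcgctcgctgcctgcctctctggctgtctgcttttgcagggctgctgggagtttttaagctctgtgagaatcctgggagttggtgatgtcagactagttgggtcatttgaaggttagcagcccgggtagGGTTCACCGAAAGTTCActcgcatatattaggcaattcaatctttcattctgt
BATF2: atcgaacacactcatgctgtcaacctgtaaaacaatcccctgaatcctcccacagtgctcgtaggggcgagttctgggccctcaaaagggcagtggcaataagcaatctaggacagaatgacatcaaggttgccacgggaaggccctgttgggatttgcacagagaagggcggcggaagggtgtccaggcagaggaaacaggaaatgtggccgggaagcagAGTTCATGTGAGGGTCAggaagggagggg
BATF2 had 17.0, 25.1, 20.3 and 11.1 CPM in Combo libraries, against 1.98, 0.443, 2.60 and 3.40 CPM in 552A libraries (3.21 ± 0.55, adjusted p = 0.0116).

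Of 15 genes listed as induced by retinoic acid, all tested, 9 rose and none fell, with a median log2 fold change of 1.93. The list was drawn up with earlier results of these data known, so its counts are not independent support. Without 552A day 2 replicate 2 the counts were 10 higher and 1 lower. TGM2, a protein crosslinking enzyme, had 305, 615, 420 and 220 CPM in Combo libraries, against 2.31, 1.05, 6.65 and 18.7 CPM in 552A libraries (6.27 ± 0.91, adjusted p = 0.00534). CD38, an NAD-consuming surface enzyme long used as a marker of ATRA response, had 529, 408, 485 and 441 CPM in Combo libraries, against 84.0, 113, 73.1 and 81.1 CPM in 552A libraries (2.42 ± 0.18, adjusted p = 0.000321). SYT2, a synaptotagmin, had 179, 147, 191 and 177 CPM in Combo libraries, against 9.92, 7.86, 14.9 and 15.3 CPM in 552A libraries (3.90 ± 0.20, adjusted p = 0.000126). The libraries of the groups were separated for all of these. For TGM2, the rule that named the largest rises required separation within each day. RARRES3, HIC1, CHST15, PRAM1, CD1D and BHLHE40 were the other members that rose, by 1.42 to 4.21 on the log2 scale. RIN1 and SLC22A16 had values of -1.84 and -0.80, and ICAM1 0.28, none of them called.

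**Figure D2:**
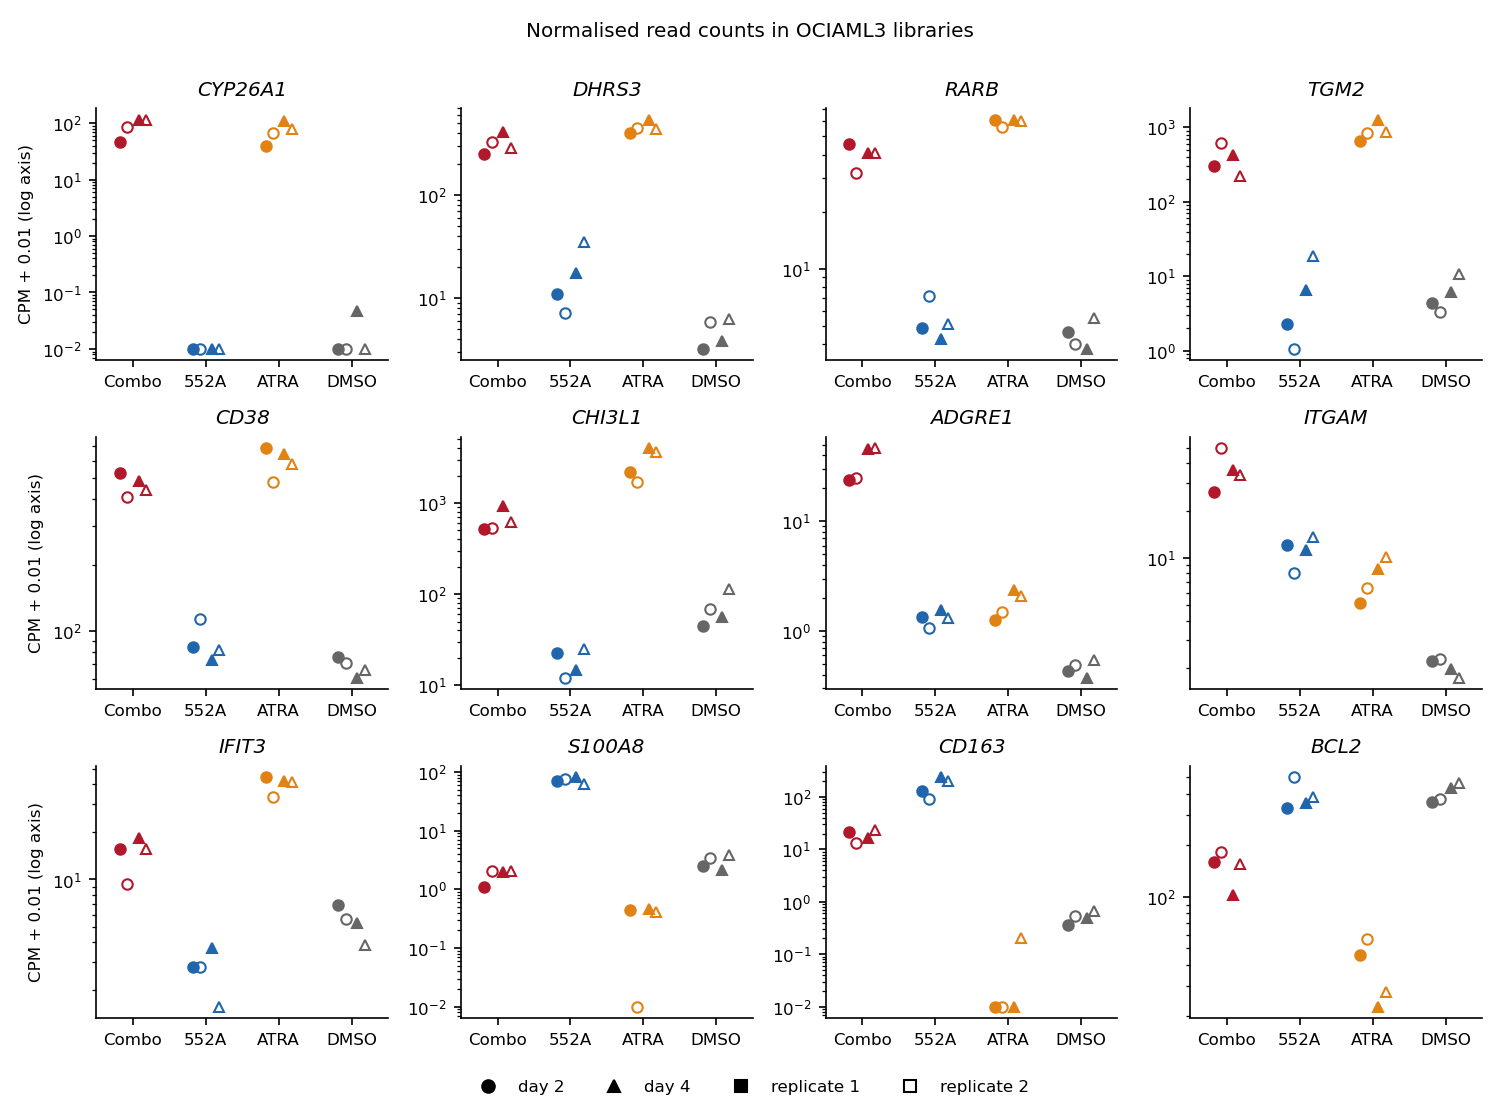
CPM plus 0.01 on log axes for 12 genes in the 16 OCIAML3 libraries, with circles for day 2, triangles for day 4, filled symbols for replicate 1 and open ones for replicate 2. CYP26A1 is between 46.3 and 115 CPM in Combo and at 0 in 552A, S100A8 between 1.10 and 2.04 CPM in Combo and 62.2 and 81.3 CPM in 552A, and ADGRE1 is higher in Combo than in the other 3 treatments.

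Beyond the retinoid lists, the largest rises were in an assorted set. They were counted over called protein-coding genes with a mean log2 CPM of 1 or more and no overlap of the groups within either day. IP6K3, an inositol phosphate kinase, had 23.5, 25.9, 35 and 23.4 CPM in Combo libraries and at most 0.100 CPM in 552A libraries (8.89 ± 0.47, adjusted p = 0.000126). ADGRE3, a myeloid adhesion receptor, had 5.77, 9.73, 17.3 and 10.5 CPM in Combo libraries, against 0, 0.111, 0.05 and 0 CPM in 552A libraries (8.14 ± 0.69, adjusted p = 0.000501). CLEC17A, a C-type lectin, had 10.4, 15.1, 44.8 and 36.9 CPM in Combo libraries and 0.0612 to 0.150 CPM in 552A libraries (7.77 ± 0.47, adjusted p = 0.000195). All 3 were at or near 0 in 552A libraries. SHE, an adaptor protein with an SH2 domain, had 54.7, 64.1, 62.9 and 58.6 CPM in Combo libraries, against 0.370, 0.941, 1.15 and 0.490 CPM in 552A libraries (6.38 ± 0.39, adjusted p = 0.000203). HEY1, a transcriptional repressor downstream of Notch, had 4.54, 3.64, 24 and 13.5 CPM in Combo libraries and 0.0412 to 0.300 CPM in 552A libraries (6.37 ± 0.37, adjusted p = 0.000195). With ATRA alone HEY1 did not exceed 0.0984 CPM, and with DMSO it was at 0. At these counts ATRA alone was still called against DMSO (3.32, adjusted p = 0.0489). The difference between the ATRA effects with and without the inhibitor was not called for HEY1 (3.03 ± 6.85 SE). GRIN2A, a glutamate receptor subunit, and MPPED1 completed the 10 largest rises with CYP26A1, CYP26B1 and TGM2, at 8.08 and 7.06. All 10 kept their call in each of the 16 alternatives.

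By the same rule, the largest fall was in S100A8, a calcium-binding subunit of calprotectin made by neutrophils and monocytes (chr1:153390032-153391188, minus strand). It had 1.10, 2.04, 1.95 and 2.04 CPM in Combo libraries, against 69.9, 76.7, 81.3 and 62.2 CPM in 552A libraries (-5.33 ± 0.27, adjusted p = 0.000126). Its partner S100A9 had 2.98, 12.8, 4.39 and 3.72 CPM in Combo libraries, against 164, 63.9, 216 and 194 CPM in 552A libraries (-4.73 ± 0.63, adjusted p = 0.00391). The related S100A12 fell by 4.21 on the log2 scale, to at most 0.194 CPM in Combo libraries, against 1.98 to 3.20 CPM in 552A libraries. These 3 genes were higher with 552A than with DMSO or with Combo. In DMSO libraries S100A8 had 2.11 to 3.83 CPM and S100A9 4.85 to 7.08 CPM, so with ATRA added S100A8 lay below and S100A9 on both sides of the vehicle level. Against DMSO, 552A changed 1109 of 19648 genes (5.64%), 774 of them higher (3.94%), and raised S100A8 by 4.61 on the log2 scale (adjusted p = 2e-05).

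ABCA1, which exports cholesterol from cells, had 3.18, 1.82, 3.07 and 2.45 CPM in Combo libraries, against 40.3, 18.3, 103 and 96.8 CPM in 552A libraries (-4.38 ± 0.46, adjusted p = 0.00144). FCGR1A, the high-affinity IgG receptor CD64, had 1.43, 4.09, 0.927 and 0.861 CPM in Combo libraries, against 30.7, 21.2, 28.7 and 30.4 CPM in 552A libraries (-4.08 ± 0.50, adjusted p = 0.00282). In neither did the groups overlap, which the rule that named the largest falls required within each day. The other large falls were SFRP2, a secreted Wnt modulator (-4.82), KCNN4, a potassium channel (-4.33), STC2, a secreted glycoprotein (-3.83), MT1A, a metallothionein (-3.80), and GALNT18, a glycosyltransferase (-3.53). KCNN4 lost its call without 552A day 2 replicate 1 or without Combo day 4 replicate 1, and STC2 and MT1A lost theirs without Combo day 4 replicate 1.

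Myeloid differentiation genes did not move as a block. Since RNA came from whole cultures, fewer cells of a type and less RNA per cell cannot be told apart. ITGAM, the CD11b integrin chain that marks maturing granulocytes and monocytes, had 26.3, 49.5, 36.4 and 33.5 CPM in Combo libraries, against 12, 8.02, 11.3 and 13.5 CPM in 552A libraries (1.71 ± 0.27, adjusted p = 0.00754), without overlap. PECAM1, an adhesion molecule, rose by 1.32, and the IgG receptors FCGR2A and FCGR1A fell by 0.98 and 4.08. ITGAX was at 2.26 and CD14 at -1.02, and neither was called. CD86, a costimulatory ligand used to follow LSD1 inhibition, had 14.3, 6.74, 35.6 and 30.8 CPM in Combo libraries, against 6.79, 14.2, 13.1 and 28.9 CPM in 552A libraries, which overlapped (0.33 ± 0.38, adjusted p = 0.659). Among 18 integrin and surface genes tested, 2 rose and 2 fell. The list had 4 higher and 3 lower without 552A day 2 replicate 2, and 9 higher and 4 lower with the GC and length correction.

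Among 7 specific and gelatinase granule genes tested, of 16 listed, 3 rose and none fell. CHI3L1, a secreted chitinase-like glycoprotein, had 515, 534, 923 and 624 CPM in Combo libraries, against 22.9, 12.1, 14.9 and 25 CPM in 552A libraries (5.09 ± 0.31, adjusted p = 0.000195). CEACAM1, an adhesion molecule of granulocytes, had 13.5, 21.8, 20.3 and 19.7 CPM in Combo libraries and 0.150 to 0.765 CPM in 552A libraries (5.36 ± 0.44, adjusted p = 0.000428). HP, haptoglobin, rose by 3.29. LTF, LCN2, CAMP, MMP8, CEACAM8 and OLFM4, the granule proteins that define late neutrophil maturation, did not reach the expression filter. Of 11 azurophil granule genes BPI and SRGN rose, by 4.50 and 1.95, while MPO, ELANE and CTSG had values of -1.49, -0.53 and -1.29 and were not called. In that list 4 were higher and 3 lower without 552A day 2 replicate 2. Of 10 neutrophil function genes 2 rose, among them CXCR2 by 0.94, and the 3 S100 genes fell. None of the 7 NADPH oxidase genes was called with all 8 libraries, and 2 were lower without 552A day 2 replicate 2.

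Among 15 monocyte and macrophage genes tested, ADGRE1, CD36 and FCN1 rose and CD163 and CX3CR1 fell with all 8 libraries. Without 552A day 2 replicate 2 the counts were 8 higher and 3 lower of 16 tested, and with the GC and length correction 8 higher and 4 lower of 15. ADGRE1, the human counterpart of the mouse macrophage marker F4/80, had 24, 25, 45.5 and 46.2 CPM in Combo libraries, against 1.32, 1.05, 1.55 and 1.29 CPM in 552A libraries (4.70 ± 0.24, adjusted p = 0.000126). CD163, the macrophage scavenger receptor for haemoglobin and haptoglobin, had 21.4, 13.3, 16.4 and 23.6 CPM in Combo libraries, against 133, 91.5, 239 and 201 CPM in 552A libraries (-3.07 ± 0.28, adjusted p = 0.000708). The groups were separated for both, in opposite directions. CD163 did not exceed 0.658 CPM in DMSO libraries or 0.197 CPM with ATRA alone. Of 18 tested genes listed as induced by LSD1 inhibitors 3 rose (HLA-DMB, SOAT1 and SCPEP1) and 4 fell (RNASE6, SP140, CD163 and S100A12), with a median log2 fold change of -0.14. These counts were 4 and 7 without 552A day 2 replicate 2. That list too was drawn up with earlier results of these data known, so its counts are not independent support.

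Of 17 myeloid transcription factors tested BATF2 was the 1 called with all 8 libraries, while without 552A day 2 replicate 2 the list had 5 higher and 5 lower, and with the GC and length correction 3 of each. CEBPA, CEBPB, SPI1 and IRF8 had values of -0.14, -0.37, -0.79 and -0.66. Of 14 HOX and progenitor factors TAL1 and LMO2 rose, by 1.41 and 0.59. This count was 8 higher and none lower without that library, and 7 higher and 1 lower with the correction. MEIS1, a cofactor of the HOX proteins, had 131, 136, 148 and 149 CPM in Combo libraries, against 79.1, 107, 92.8 and 104 CPM in 552A libraries. The groups did not overlap, but MEIS1 missed the threshold (0.56 ± 0.15, adjusted p = 0.0672), and HOXA9 stood at 0.00 ± 0.26. GFI1B had too few counts to test. Of 6 dendritic cell genes tested FLT3, a receptor tyrosine kinase of progenitors and dendritic cells, rose by 1.75 and CD209 by 1.24, and without that library 2 of the 6 were higher and 2 lower.

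Of 16 lymphoid markers 7 were tested and 3 were at 0 in all 8 libraries, and their summed level was 60.6 to 124 CPM in Combo libraries, against 52.4 to 77.8 CPM in 552A libraries. IL7R fell by 2.95, the 1 call of the 7 (2 were lower without 552A day 2 replicate 2). Of 14 megakaryocyte and erythroid markers 4 were tested and 5 were at 0, and the sum was 26.3 to 46.3 CPM in Combo libraries, against 12.3 to 28.7 CPM in 552A libraries. NFE2, a transcription factor of that list that myeloid cells also use, rose by 1.96, the 1 call of the 4 (1 was higher and 1 lower without that library). Of 12 mast cell, basophil and eosinophil markers 5 were at 0 and 2 were tested, of which neither was called (1 of 3 was higher without that library), with a sum of 232 to 343 CPM in Combo libraries, against 215 to 379 CPM in 552A libraries. The part of any of these in the other results was not tested.

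Of 30 interferon-stimulated genes tested, 17 rose and 1 fell, with a median log2 fold change of 1.38. Leaving out 1 library at a time left 11 to 21 of them higher. IFIT3, which takes part in the recognition of foreign RNA, had 15.6, 9.39, 18.3 and 15.5 CPM in Combo libraries, against 2.80, 2.77, 3.70 and 1.56 CPM in 552A libraries (2.43 ± 0.33, adjusted p = 0.00417). RSAD2, an antiviral enzyme, had 18.0, 8.14, 19.3 and 16.3 CPM in Combo libraries, against 3.01, 2.16, 3.05 and 2.60 CPM in 552A libraries (2.50 ± 0.30, adjusted p = 0.00249). GBP4, an interferon-induced GTPase, had 193, 168, 305 and 279 CPM in Combo libraries, against 28.9, 35.5, 28.9 and 23.9 CPM in 552A libraries (2.98 ± 0.24, adjusted p = 0.000422). No Combo library fell within the 552A range for any of them. The levels of many members were low, as for IFI44L, which had 2.42 to 4.86 CPM in Combo libraries and at most 0.0553 CPM in 552A libraries (6.52 ± 0.53, adjusted p = 0.000415). USP18, which damps interferon receptor signalling, was the member that fell. It had 1.81, 1.51, 1.17 and 0.771 CPM in Combo libraries, against 5.39, 2.55, 5.20 and 4.19 CPM in 552A libraries (-1.75 ± 0.35, adjusted p = 0.0213). ISG15 and IRF7 had values of 0.07 and -0.29, and STAT2 and IRF9, which relay the interferon signal, 0.41 and 0.58, none of them called.

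Interferon-stimulated genes often carry an element made of GAAA repeated after 2 bases of any kind in their promoters. Searched on both strands, it was in 1061 of the 35116 windows of 250 bases (3.02%), in 386 of the 10882 tested genes with a window (3.55%), in 38 of the 586 genes called higher (6.48%) and in 6 of the 259 called lower (2.32%). Of 21 listed interferon-stimulated genes with a window 15 held it (71.4%). The windows of IFIT3 (chr10:89332279-89332528, plus strand) and RSAD2 (chr2:6877527-6877776, plus strand) are shown because both genes are described above, with the matches, on the strand opposite to the gene, in capitals as they read along the gene. The pair in IFIT3 begins 94 and 51 bases before the start, and the one in RSAD2 145 bases before it.
IFIT3: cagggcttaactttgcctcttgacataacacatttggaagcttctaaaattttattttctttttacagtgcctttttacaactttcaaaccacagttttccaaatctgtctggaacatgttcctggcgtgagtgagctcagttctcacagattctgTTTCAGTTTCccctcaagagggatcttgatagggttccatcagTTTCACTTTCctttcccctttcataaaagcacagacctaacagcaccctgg
RSAD2: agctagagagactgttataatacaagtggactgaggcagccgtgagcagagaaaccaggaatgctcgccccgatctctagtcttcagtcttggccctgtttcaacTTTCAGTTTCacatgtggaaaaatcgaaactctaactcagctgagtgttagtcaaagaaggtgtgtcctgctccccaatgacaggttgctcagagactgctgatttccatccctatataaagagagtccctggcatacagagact

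Of 15 HLA class I and peptide-loading genes 2 rose, ERAP2 by 1.04 and B2M by 0.74, while HLA-B and HLA-C were at 0.49 and 0.48 and were not called. The counts were 3 higher and 1 lower without 552A day 2 replicate 2, and 9 higher and none lower with the GC and length correction. Of 6 HLA class II genes HLA-DMB rose, by 1.80, against 2 higher and 1 lower without that library. Near-identical paralogs make the HLA values uncertain.

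**Figure D3:**
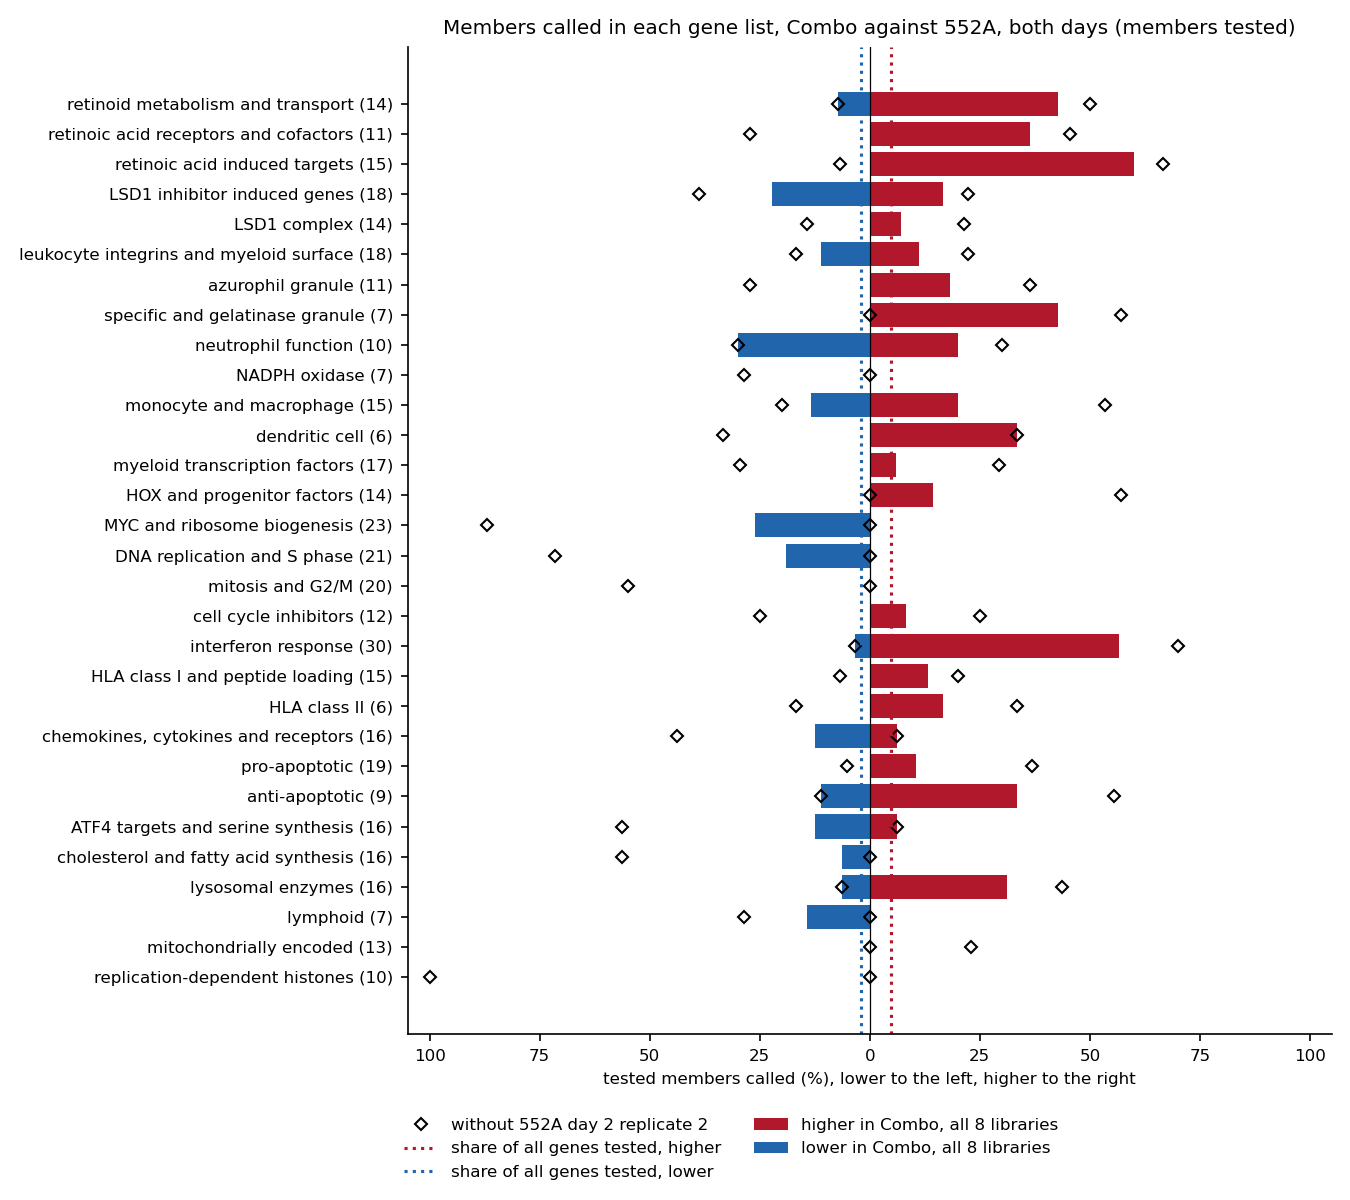
Share of the tested members of each gene list called higher (right) or lower (left) in Combo against 552A over both days, for lists with at least 6 tested members. Bars are the 8-library fit and diamonds the fit without 552A day 2 replicate 2. Dotted lines are the shares of all genes tested in the 8-library fit, 4.92% higher and 2.01% lower. They do not apply to the diamonds, whose fit called 3170 genes higher and 2947 lower, against 934 and 381. The retinoic acid target and interferon lists extend furthest to the right, and the growth lists extend to the left more widely without that library. All lists were chosen with earlier results of these data known.

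Some genes of growth and division fell, and how many depended on single libraries. Of 23 MYC and ribosome biogenesis genes, 6 fell and none rose, with a median log2 fold change of -0.69. MYC had 62.5, 108, 87.8 and 75.7 CPM in Combo libraries, against 231, 98.4, 248 and 298 CPM in 552A libraries. The 1 overlap came from 552A day 2 replicate 2. MYC was called (-1.34 ± 0.32, adjusted p = 0.0453), but in only 2 of the 8 fits that each left out 1 library, those without 552A day 2 replicate 2 and without Combo day 2 replicate 2. FBL and NOLC1, nucleolar proteins of ribosome assembly, fell by 1.12 and 0.73. Of 21 DNA replication genes 4 fell, the helicase subunits MCM4 and MCM6 and the replication factors MCM10 and CDC45, with a median of -0.63. None of 20 mitosis genes was called, with a median of -0.41. Without 552A day 2 replicate 2 the numbers that fell were 20 of 23, 15 of 21 and 11 of 20, and with the GC and length correction 21, 17 and 20. Leaving out 1 of several other libraries left 0 members called, for example Combo day 4 replicate 1 in the first and the replication list. The 10 replication-dependent histones had a median of -1.04 with none called, and all 10 fell without that library. BTG2, an antiproliferative factor, rose by 1.08, the 1 call among 12 cell cycle inhibitors (3 higher and 3 lower without that library), and CDKN1A was at 1.06 and not called.

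BCL2, the survival protein targeted by venetoclax, had 159, 182, 102 and 156 CPM in Combo libraries, against 333, 501, 355 and 386 CPM in 552A libraries, a fall with no overlap (-1.40 ± 0.20, adjusted p = 0.00531). BCL2A1, BIRC3 and CFLAR, which also oppose cell death, rose by 3, 2.73 and 0.93, and MCL1 was at -0.02. Of 9 anti-apoptotic genes 3 rose and 1 fell, and without 552A day 2 replicate 2 the counts were 5 higher and 1 lower. Of 19 pro-apoptotic genes BIK and BMF rose, by 2.45 and 1.20, and without that library 7 were higher and 1 lower. PSAT1 and TRIB3, of the serine synthesis and ATF4 genes, fell by 1.57 and 1.93, and ATF3 rose by 1.34. Of the 16 in that list 1 was higher and 9 were lower without that library. INSIG1, a brake on cholesterol synthesis, fell by 0.81, the 1 call in 16 genes of that pathway, against 9 lower without that library. Of 16 lysosomal genes PSAP, ASAH1, HEXA, LAMP2 and NPC2 rose, by 0.70 to 1.94, and CTSH, a cathepsin, fell by 1.04. CCR1, a chemokine receptor, rose by 0.87, and TNF and IL1RN fell by 2.41 and 0.96, of 16 chemokine and cytokine genes, of which 1 was higher and 7 were lower without that library. None of the 13 mitochondrially encoded genes was called (median 0.20), and 3 were higher without that library. Their share of a library was 1.36 to 3.65% in Combo, against 0.826 to 1.17% in 552A. It varied widely between replicates, from 0.985 to 4.63% with ATRA alone and from 0.847 to 6.16% with DMSO. The DMSO day 4 replicates had 0.883 and 6.16%.

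By day, 247 genes were called at day 2 (1.3%), 205 higher and 42 lower, and 483 at day 4 (2.55%), 374 higher (1.97%) and 109 lower. None of 18967 differed between the days in edgeR's test (0%), with 565 at an unadjusted p under 0.05 and 3 by DESeq2. The counts of a single day rested on single libraries. At day 2 the count was 0 without Combo day 2 replicate 1 and 2514 without 552A day 2 replicate 1. At day 4 it was 0 without either 552A day 4 library and 2572 without 552A day 2 replicate 1.

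Whether ATRA acted differently with the inhibitor than without it was tested as the difference between Combo over 552A and ATRA over DMSO. The 2 effects share no library. In the fit of 16 libraries ATRA alone changed 5524 of 19665 genes (28.1%), 3223 higher and 2301 lower. Combo against 552A called 3274 genes in that fit, 1948 higher and 1326 lower, and 1315 in the fit of 8 libraries. The difference was called for 133 of 19627 genes (0.678%), 65 positive and 68 negative, with 1435 at an unadjusted p under 0.05. Leaving out 1 of the 16 libraries gave 70 to 415 calls, with 415 without 552A day 2 replicate 1, 323 without replicate 2 and at most 106 without any other library.

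Among the genes with a positive difference were COL15A1 and SPARC. COL15A1, a basement membrane collagen (chr9:98943179-99070792, plus strand), had 122, 110, 150 and 88.2 CPM in Combo libraries, against 29.6, 23.2, 31.0 and 33.9 CPM in 552A libraries. With ATRA alone it had 10.1 to 12.6 CPM, against 25.5 to 29.7 CPM with DMSO. ATRA thus raised it with the inhibitor (2.01 ± 0.21, adjusted p = 0.00144) and lowered it without (-1.29, adjusted p = 0.000245), a difference of 3.29 ± 0.25 (adjusted p = 0.000425). SPARC, a secreted matrix glycoprotein, had 7.58, 8.71, 6.83 and 6.21 CPM in Combo libraries, against 0.494, 0.553, 0.350 and 0.245 CPM in 552A libraries, while ATRA alone gave 1.84 to 4.45 CPM, against 1.06 to 2.30 CPM with DMSO (difference 3.69 ± 0.38, adjusted p = 0.00169). RHEX, a regulator of erythropoietin signalling, had 60.7, 66.6, 51.5 and 44.6 CPM in Combo libraries, against 19.0, 30.0, 14.5 and 12.5 CPM in 552A libraries (1.61 ± 0.21, adjusted p = 0.00391), with the opposite sign for ATRA alone (-0.99, adjusted p = 0.00139) and a difference of 2.59 ± 0.24 (adjusted p = 0.00105). ADGRE1 was another, since ATRA alone gave 1.24 to 2.34 CPM, against 0.364 to 0.535 CPM with DMSO (difference 2.76 ± 0.25, adjusted p = 0.000839), and so was SHE (3.03 ± 0.45, adjusted p = 0.00976). SHISAL1 and PTGIS had differences of 4.18 and 3.33. SHISAL1 had 0.167 to 0.525 CPM with ATRA alone, against 5.10 to 7.65 CPM with DMSO, and was at 0.122 to 0.700 CPM in 552A libraries already. PTGIS, the prostacyclin synthase, had 84.7, 156, 33.1 and 37.0 CPM in Combo libraries, against 14, 9.24, 28.1 and 54.2 CPM in 552A libraries, which overlapped at day 4.

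BCL2 also had a positive difference, 2.09 ± 0.24 (adjusted p = 0.00267). With ATRA alone it had 45.9, 56.3, 22.8 and 27.8 CPM, against 358, 372, 435 and 465 CPM with DMSO, a fall of 3.49 on the log2 scale, against the fall of 1.40 with the inhibitor. The lowest Combo library, at 102 CPM, was above the highest ATRA library.

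The negative differences included genes that the inhibitor alone had already raised. CD1D, which presents lipids to T cells, had 597, 813, 836 and 857 CPM in Combo libraries, against 167, 190, 217 and 249 CPM in 552A libraries, and 574, 671, 855 and 786 CPM with ATRA alone, against 66.4, 68.3, 41.1 and 48.9 CPM with DMSO. The levels with ATRA overlapped whether or not the inhibitor was present, and those without ATRA did not (difference -1.78 ± 0.17, adjusted p = 0.00129). ST6GALNAC5, a sialyltransferase (-3.95), CADM1, an adhesion molecule (-2.88), IGFBP5, which binds insulin-like growth factors (-3.67), and DHRS3 (-2.22, adjusted p = 0.0225) shared that pattern of overlapping or near levels with ATRA and higher ones in 552A than in DMSO libraries. In FAM111B, a protease linked to DNA replication, ATRA raised the level without the inhibitor by 2.92 and was at -0.06 with it (difference -2.98 ± 0.48, adjusted p = 0.0143).

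For the interferon-stimulated genes OAS2 and MX1 the level with ATRA was itself lower in the presence of the inhibitor. OAS2, a sensor of double-stranded RNA, had 22.6, 19.2, 18.3 and 19.4 CPM in Combo libraries, against 9.92, 8.52, 11.5 and 8.48 CPM in 552A libraries, and 76.1, 43.3, 60.6 and 85.2 CPM with ATRA alone, against 7.94, 5.96, 6.67 and 5.31 CPM with DMSO. No Combo library reached the lowest ATRA library (difference -2.31 ± 0.30, adjusted p = 0.00411). MX1, an antiviral GTPase, had 8.10, 5.49, 5.66 and 5.26 CPM in Combo libraries, against 1.11 to 2.15 CPM in 552A libraries, and 40.5 to 89.2 CPM with ATRA alone, against 2.80 to 3.90 CPM with DMSO (difference -2.43 ± 0.41, adjusted p = 0.019). OASL, OAS1, IFI6 and STAT2 were called as well, at -2.77, -2.20, -1.80 and -1.06, so 6 of the list had a negative difference and none a positive one. Over all 19627 genes tested for this difference, 0.346% were called negative and 0.331% positive. ATRA alone raised 28 of the 31 listed genes tested in the fit of 16 libraries, where it raised 16.4% of all genes. In that fit Combo against 552A had 22 of the 31 higher and 1 lower.

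**Figure D4:**
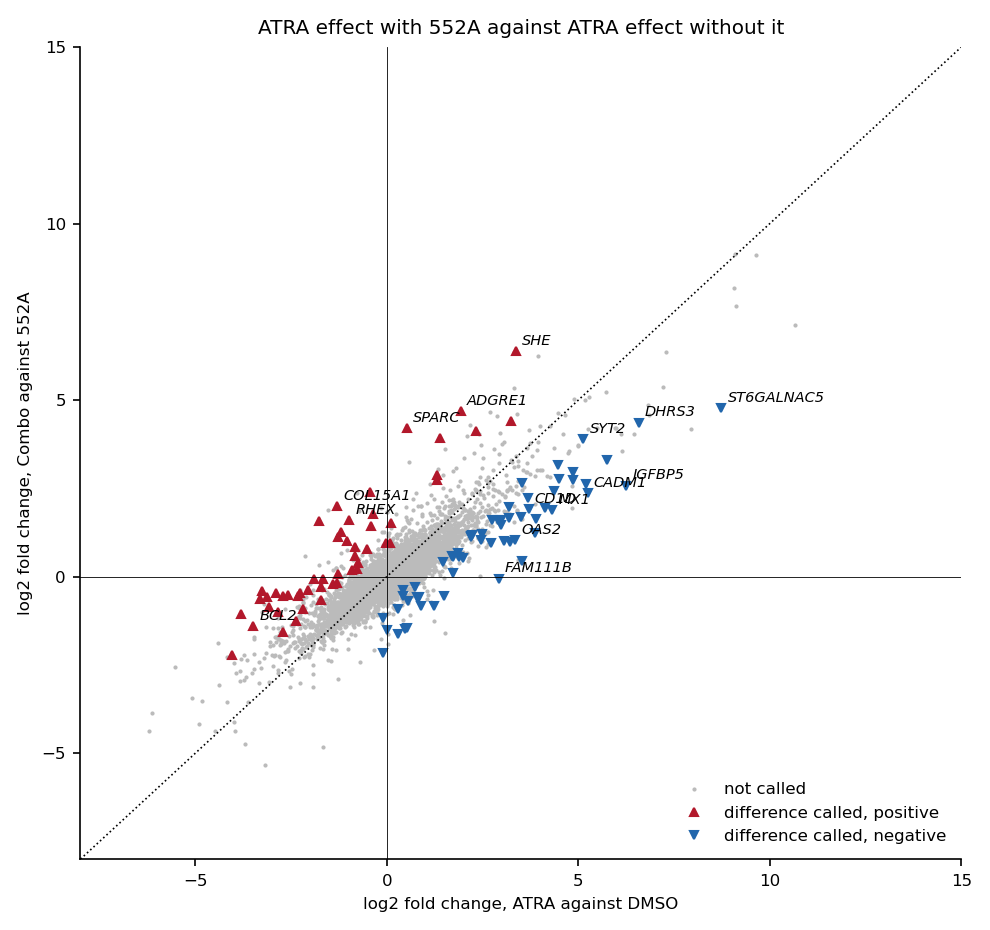
Log2 fold change of ATRA against DMSO (horizontal) and of Combo against 552A (vertical) in the fit of 16 libraries. Coloured triangles mark called differences. Genes drawn are those tested in the fit of 8 libraries, with a mean log2 CPM of 1 or more there. SHISAL1, not tested in that fit, is not drawn. The dotted line marks equal effects. COL15A1 and RHEX lie above 0 on the vertical and below 0 on the horizontal axis, and DHRS3, CD1D and MX1 lie under the line.

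The same comparison in the other lines placed the OCIAML3 response beside theirs. In the mean of HL60, Kasumi1, MOLM13, MV411 and THP1, 7536 of 19770 genes were called (38.1%), and OCIAML3 differed from that mean for 1413 of 19577 genes (7.22%), 913 more positive (4.66%) and 500 more negative. The share of more positive calls was 64.6%, against 50.5% with the correction for GC content and length, which called 3641, and 42.1% with no filter on low counts, where 795 were more positive and 1094 more negative. Of the 15 retinoic acid targets, 6 had a more negative value in OCIAML3 than in the mean of the other lines and 2 a more positive one. CD38 rose by 2.45 on the log2 scale in OCIAML3, against 2.99 to 8.35 in the other 5 (difference from their mean -1.94, adjusted p = 1.23e-08), and CD1D by 1.96, against 0.39 to 6.01 (difference -1.84, adjusted p = 2.43e-10). RARB was 2.14 above the mean of the other lines (adjusted p = 0.000116).

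Some genes had the opposite sign in part of the other lines. RHEX averaged 51.8 ± 8.86 CPM in Combo and 17.4 ± 7.76 CPM in 552A in OCIAML3 (SD, n = 4 each), 0.579 ± 0.301 CPM in Combo and 134 ± 61.0 CPM in 552A in HL60, and 2.15 ± 1.89 CPM in Combo and 77.8 ± 27.1 CPM in 552A in MOLM13. It fell in 4 of the other 5 lines, all but Kasumi1, where it was at -0.53 and not called (difference 5.72 ± 0.32, adjusted p = 5.17e-13). KIF13A, a kinesin motor, averaged 9.59 ± 4.63 CPM in Combo and 0.770 ± 0.422 CPM in 552A in OCIAML3, and 0.210 ± 0.272 CPM in Combo and 4.05 ± 0.570 CPM in 552A in HL60 (difference 5.71 ± 0.31, adjusted p = 5.17e-13). It fell in MOLM13 and MV411 too, rose in THP1 by 0.82 (adjusted p = 0.00382) and was not called in Kasumi1. NFE2 rose by 1.99 in OCIAML3 and was at -3.65, -3.06 and -7.48 in HL60, MOLM13 and MV411, with 0.18 in Kasumi1 and 0.64 in THP1 not called (difference 4.67, adjusted p = 4.73e-09). ABCA1 averaged 2.44 ± 0.579 CPM in Combo and 57.9 ± 37.0 CPM in 552A in OCIAML3, 121 ± 62.0 CPM in Combo and 61.4 ± 17.1 CPM in 552A in HL60, and 350 ± 86.9 CPM in Combo and 247 ± 61.1 CPM in 552A in THP1 (difference -4.74 ± 0.41, adjusted p = 1.43e-09). Among the other lines ABCA1 was called in HL60 alone, where it rose by 0.91 (adjusted p = 0.0239). It was at 0.14 in MOLM13, 0.50 in THP1 and 1.24 in Kasumi1, and in MV411 it had the sign of OCIAML3, -0.78 (adjusted p = 0.0986). FCGR1A had the same sign in all 6 lines, and fell by 4.08 in OCIAML3, against values of -1.89 to -0.29 in the other lines (difference -3.13 ± 0.22, adjusted p = 4.67e-11). MPEG1, a pore-forming protein of macrophages, averaged 0.355 ± 0.168 CPM in Combo and 2.60 ± 0.640 CPM in 552A in OCIAML3, and 302 ± 159 CPM in Combo and 41.6 ± 6.09 CPM in 552A in MOLM13 (difference -4.51 ± 0.26, adjusted p = 5.17e-13). It rose in HL60 as well, fell in MV411 by 1.44 (adjusted p = 2.33e-07) and was not called in Kasumi1 or THP1.

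Of the interferon list, 10 members had a more positive value in OCIAML3 than in the mean of the other lines and 1 a more negative one. The shares over all genes tested were 4.66% more positive and 2.55% more negative. IFIT2 averaged 4.21 ± 0.996 CPM in Combo and 0.580 ± 0.284 CPM in 552A in OCIAML3, and the other lines were between -0.66 and 0.99 on the log2 scale (difference 2.69 ± 0.39, adjusted p = 1.96e-05). The level in 552A libraries of OCIAML3 was below that of each other line for this gene, where it averaged 1.19 to 28.4 CPM.

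**Figure D5:**
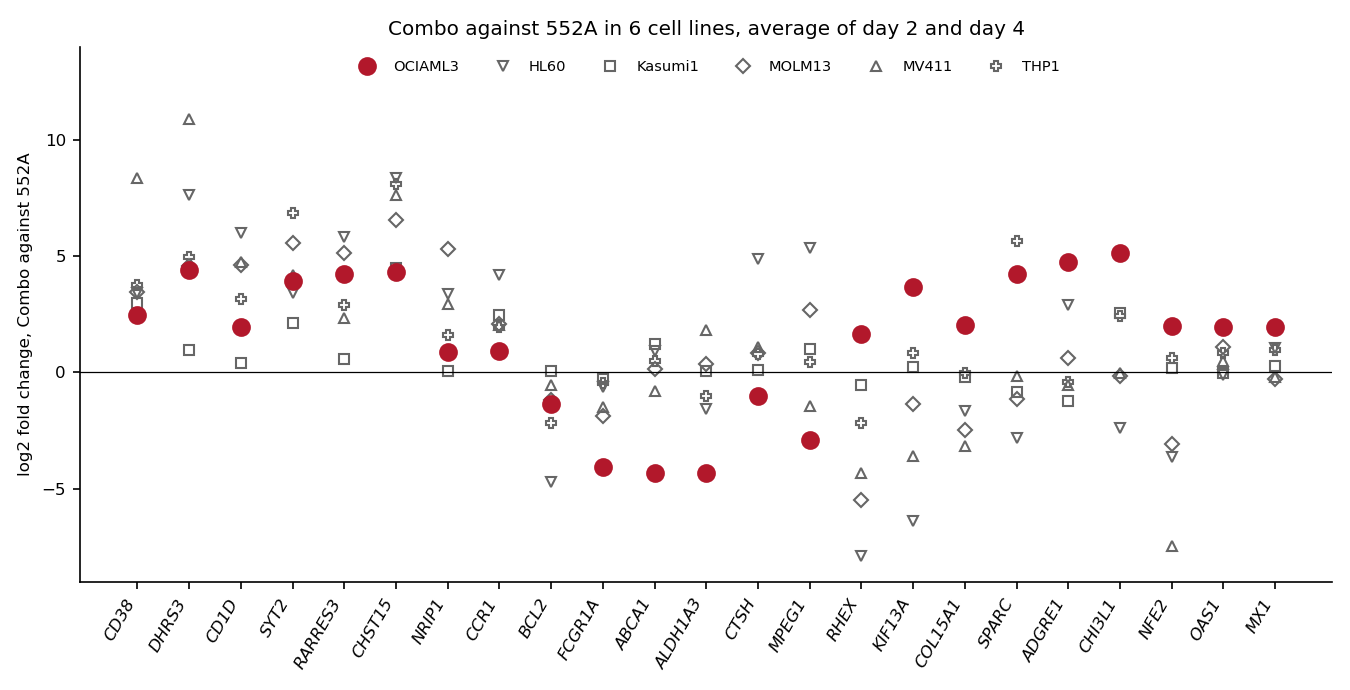
Log2 fold change of Combo against 552A, averaged over day 2 and day 4, for 23 genes in OCIAML3 (filled circles) and 5 other lines (open symbols), from a fit of 48 libraries. The genes were picked for display after their values were seen, and fitted values of lines with a group near 0 depend on the prior count. OCIAML3 lies lowest for FCGR1A, ABCA1 and ALDH1A3 and highest for RHEX, KIF13A and COL15A1.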

How the data were processed

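Total RNA of treated AML lines was sequenced after TRIzol and RNeasy extraction and TruSeq Stranded Total RNA preparation, per the labels' protocols. The deposited file holds the authors' raw read counts per gene, 60552 gene rows for 96 libraries. Per the submitters' processing notes, Trimmomatic 0.36, STAR 2.4.2a, HTSeq 0.6.0 and GRCh38 were used; which annotation release was counted, and with which strand setting, is not given in the sources used here, which leaves overlapping and antisense genes uncertain. Of the rows, 56994 matched GENCODE 29, which gave symbols, biotypes and coordinates, and the 3508 unmatched rows held 0.0417% of the counts. Groups came from the library titles.

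Counts were tested with edgeR 4.0.16 in R 4.3.3 (quasi-likelihood test, TMM normalisation, filterByExpr by group, Benjamini-Hochberg adjustment at 0.05 over all genes tested). Combo against 552A was fitted on 8 libraries with day as a factor (5 residual degrees of freedom), each day and the difference between days on 4 groups (4), the difference from the effect of ATRA alone on 16 libraries (8) and the difference from the other lines on 48 (24). Contrasts in which both sides held a group at 0 are not identified and were left out, a rule added after the counts were seen; 18967 of 18977, 19627 of 19683 and 19577 of 23816 genes then remained for the day, ATRA and line differences. The fitting code was tested on simulated data. Printed CPM use TMM factors of the 16 OCIAML3 libraries, or of 48 libraries where lines are compared.

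Named genes were the 10 largest rises and falls among called protein-coding genes whose mean log2 CPM was 1 or more, with no overlap of the groups within either day, up to 4 members of each list by smallest p, the 4 largest differences in each direction for the remaining contrasts and 10 fixed genes; further members of the lists, RHEX, SHE and ADGRE1 in the ATRA difference, and IFIT2 among the lines, were picked after their values were seen. A few genes that the rule or the lists name are not reported here. The 32 gene lists hold 509 genes. The comparison, its members and the lists were chosen with earlier results of these data known. Alternatives were DESeq2 1.42.0, its size factors, other filters, a correction for GC content and length (splines with 5 degrees of freedom), the replicate number as a block, the 16-library fit and leaving out each library.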

Additional observations from a re-analysis of the deposited data

Results flagged for a closer look

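The effect of ATRA differed with and without the inhibitor for 133 genes by a test of the difference itself, and these 4 largest positive and 4 largest negative ones among protein-coding genes whose mean log2 CPM was 1 or more merit a second look. The log2 difference, with 552A minus without, was 4.18 for SHISAL1, 3.69 for SPARC, 3.33 for PTGIS and 3.29 for COL15A1. It was -3.95 for ST6GALNAC5, -3.67 for IGFBP5, -2.98 for FAM111B and -2.88 for CADM1. SHISAL1 had too few counts for the test of Combo against 552A.

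The response of OCIAML3 differed from the mean of the other 5 lines for 1413 genes, again by a test of the difference. The log2 difference, OCIAML3 minus the others, was 7.06 for IFI44, an interferon-stimulated gene, 6.09 for ZBTB16, a transcriptional repressor fused to RARA in some leukaemias, 5.72 for RHEX and 5.71 for KIF13A. It was -6.42 for ALOX15, a lipoxygenase, -4.74 for ABCA1 and -4.51 for MPEG1. For several of these OCIAML3 itself was near 0. ZBTB16 averaged 0.283 CPM in Combo and 0.0756 CPM in 552A in OCIAML3, against 0.249 CPM in Combo and 25.9 CPM in 552A in HL60. ALOX15 averaged 0.00874 CPM in Combo and 0.305 CPM in 552A in OCIAML3, and 14 CPM in Combo and 0.0295 CPM in 552A in HL60.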

How the results depend on the processing

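Settings other than leaving out a library moved several counts of called genes by over 1.5 times. Over both days, 1315 became 1996 with DESeq2, 5463 with the GC and length correction, 5570 with that correction and the replicate block, and 3274 with 16 libraries in the fit. At day 2, 247 became 567 with DESeq2, 647 with no filter, 94 with the replicate block, 2723 with the correction, 2906 with the correction and block, and 1198 with 16 libraries. At day 4, 483 became 1001 with DESeq2, 1323 with no filter, 284 with the replicate block, 3419 with the correction, 3666 with the correction and block, and 1925 with 16 libraries. For day 4 minus day 2, 0 became 3 with DESeq2, 13 with no filter, 1 with the correction, 1 with the correction and block, and 4 with 16 libraries. The difference from ATRA alone, 133, became 300 with DESeq2, 391 with no filter and 686 with the correction, and the difference from the other lines, 1413, became 3641 with the correction. Without a filter the share of higher calls was 56.9% over both days. Same-numbered libraries did not deviate in a common direction: the correlations of their deviations between groups ran from -0.8 to 0.86 over 12772 genes. The GC trends of single libraries may enter these values, so whether same-numbered libraries share a culture or batch was not tested. With the replicate block, 982 genes were called over both days, 166 for the difference from ATRA alone and 1476 for the lines. Leaving out 1 library gave 516 to 6117 calls over both days, 0 to 2514 at day 2, 0 to 2572 at day 4, 0 to 3514 for the difference between days, 70 to 415 for the difference from ATRA alone and 1007 to 1797 for the lines. The 3514 arose without 552A day 2 replicate 1, which leaves only the library with the steep GC trend in its group. The cause of these shifts was not tested. None of the genes whose sign reversed was called. HOXA9 was at -0.03 with DESeq2 and with its size factors, -0.04 with no filter and -0.01 with the stricter filter and the correction. Without 1 library HOXA9 ran from -0.18 to 0.29, CYBA from -1.26 to 0.09, MS4A2 from -0.53 to 0.13, RNASE2 from -0.06 to 0.34 and FAM111B from -0.27 to 0.23. Of 3750 values under the alternatives, of single genes and of list counts together, 3013 were the same. Among the values of single genes, 227 lost the call, 166 gained one and 19 reversed. The 325 that moved were list counts, which changed by over 1.5 times or went from or to 0. With 5 residual degrees of freedom and 14.36 M counts in the shallowest library, genes near 0 carry wide errors.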
